A study of Mus musculus with 30 samples.

Results

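Erythroid transcripts in these heart libraries were followed through 7 genes chosen by symbol, namely the adult alpha-globin genes Hba-a1 and Hba-a2, the adult beta-globin genes Hbb-bs and Hbb-bt, the heme enzymes Alas2 and Fech, and the red cell anion exchanger Slc4a1. All 7 were found by Ensembl identifier in each of 2 count tables, out of 78258 genes in the table of the postpartum study and 56691 in that of the diet study. The genes were proposed after results of these libraries had been seen. Their levels are therefore given first as descriptions, and the tests below are those of fits across all genes, read against how often any gene passed.

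The mice carried either wild-type Chchd10 (WT) or the S55L point mutation of this gene, which encodes a protein of the mitochondrial intermembrane space. Naive mice had reached 100 days of age. Postpartum (PP) mice of the postpartum study had been mated at 65 days of age. No mating age is listed for the diet study. PP hearts of both studies were collected 0 days after delivery. The diet study used S55L PP mice throughout, given either the control diet or one with EH301, a mix of nicotinamide riboside and pterostilbene, over the breeding period. The tissue was heart, taken in bulk, so the counts do not say which cells held a transcript, and fewer cells of a type and less RNA per cell cannot be told apart. Several labelled columns were copies: WT PP 1 and 2 were identical, S55L PP 1 and 2 were identical, and control diet 5 was identical to EH301 diet 6. The first 2 pairs were each counted once, and the third was left out because it carries both diets. This left 5 WT naive, 4 WT PP, 5 S55L naive, 4 S55L PP, 4 control diet and 4 EH301 diet libraries. Each column name carries a number of its own that the labels do not explain, and nothing states that libraries came from separate mice. The p-values therefore reflect only how far these libraries spread, which may be technical.

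Hemoglobin is a tetramer of alpha and beta chains, each holding a heme, and red cells carry it at very high concentration. Heme is built in a chain of enzymes that starts in the mitochondrion with 5-aminolevulinate synthase, Alas1 in most tissues and Alas2 in the erythroid lineage, and ends there with ferrochelatase, Fech, which inserts the iron. Circulating reticulocytes, the youngest red cells, still hold globin and Alas2 mRNA, and mature mouse red cells have lost their nuclei.

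Depth, as reads on genes, lay between 1418715 and 2949993 in the 9 WT libraries and between 2755500 and 5131316 in the 9 S55L libraries of the postpartum study. It lay between 466651 and 3048461 in the diet study, where control diet 1 was the shallowest and stood apart in several members. Genotype nearly coincided with the plate column in the library names. Column 1 held WT libraries only, column 2 held all S55L naive libraries together with WT PP 1 and S55L PP 5, and column 3 held the remaining S55L PP libraries. Levels below are CPM, a gene's reads per 1000000 reads on genes, with library sizes scaled by TMM, a scaling that assumes that most genes do not change. The libraries were of the 3' type, which read each transcript once near its end, so levels were not divided by length.

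The label erythroid held for part of the lineage's genes. No read fell on the embryonic globins Hba-x, Hbb-y, Hbb-bh1 and Hbb-bh2 in either study. Epb42 and Rhag, parts of the red cell membrane, also had no read in any library used. In the postpartum study, Gata1, the master regulator of the lineage, had 1 read in S55L PP and none in the other groups. Klf1, the activator of adult beta globin, had 1 to 3 reads per group. The globins and Alas2, which persist in reticulocytes, were thus measured, while Gata1 and Klf1 were at or near 0. This did not hold for all listed genes of the lineage. Of 13 erythroid regulators 8 could be tested in the postpartum study, and of 17 red cell membrane and skeleton genes 7. By edgeR, 1 regulator was higher and 3 were lower in S55L naive than in WT naive hearts. The shares of all genes were 21.9% and 21.6%.

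The upstream sequences of 4 members are shown because 2 of them (the beta pair) share part of their sequence, and because the globin genes and Alas2 had the same highest or lowest library in many groups. Each gives the 250 bases before the RefSeq start on build GRCm38.p6, read 5′ to 3′ on the gene's strand. Capitals mark matches to 4 motifs: the GATA motif (AGATAA, with T also allowed as its first and G as its last letter, either strand), the CACCC motif of Klf-type factors (CCNCNCCC, either strand), CCAAT (either strand), and a TATA motif (TATAAA, with C also allowed as its first or G as its last letter, but not both, gene strand). Matches that touch or overlap run together in capitals. Slc4a1 and Fech are not shown.
Hba-a1 (chr11:32283422-32283671, plus strand): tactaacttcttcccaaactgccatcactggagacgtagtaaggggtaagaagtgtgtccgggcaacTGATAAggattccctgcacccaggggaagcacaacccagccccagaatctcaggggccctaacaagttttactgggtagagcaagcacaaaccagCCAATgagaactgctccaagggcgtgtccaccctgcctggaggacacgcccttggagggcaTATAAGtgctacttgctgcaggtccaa
Hbb-bs (chr7:103827929-103828178, minus strand): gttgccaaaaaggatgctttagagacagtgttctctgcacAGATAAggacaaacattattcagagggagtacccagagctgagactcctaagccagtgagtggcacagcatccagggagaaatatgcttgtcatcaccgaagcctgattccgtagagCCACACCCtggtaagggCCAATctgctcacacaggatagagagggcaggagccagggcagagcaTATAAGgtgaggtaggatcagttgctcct
Hbb-bt (chr7:103813924-103814173, minus strand): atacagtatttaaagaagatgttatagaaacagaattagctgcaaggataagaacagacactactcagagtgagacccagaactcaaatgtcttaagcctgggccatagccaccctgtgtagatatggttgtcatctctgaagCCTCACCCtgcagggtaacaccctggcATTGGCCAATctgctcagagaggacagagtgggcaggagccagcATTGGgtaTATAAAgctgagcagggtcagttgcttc
Alas2 (chrX:150547167-150547416, plus strand): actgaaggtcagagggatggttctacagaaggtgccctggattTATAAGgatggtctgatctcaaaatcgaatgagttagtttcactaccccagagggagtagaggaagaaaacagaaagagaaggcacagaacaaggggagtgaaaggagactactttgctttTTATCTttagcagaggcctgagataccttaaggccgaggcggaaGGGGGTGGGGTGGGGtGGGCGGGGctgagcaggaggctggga

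Hba-a2 (chr11:32296242-32296491, plus strand) had the same sequence as Hba-a1 over all 247 aligned bases, so the alpha pair cannot be told apart there. Hbb-bs and Hbb-bt matched at 182 of 242 aligned bases (75.2%). A GATA match was present upstream of Hba-a1, Hba-a2, Hbb-bs and Alas2, and no such letters were found in the Hbb-bt window. CCAAT was found upstream of the 4 globin genes, CACCC upstream of Hbb-bs, Hbb-bt and Alas2, and the TATA motif upstream of each of the 5. In the globin genes the TATA match began 30 to 27 bases before the start, whereas that of Alas2 began at position -207. Among 32851 promoters searched in the same way, 26.5% held the GATA motif, 45.9% CACCC, 33.8% CCAAT and 16.2% TATA. A match is a stretch of letters and not evidence of binding.

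Reads of the 7 members together made up 0.0918% to 1.16% of the reads on genes in the postpartum study and 0.135% to 2.10% in the diet study. The lowest share in the postpartum study was that of WT PP 1 and the highest that of S55L PP 4. Low and high libraries were shared between genes of a pair: Hbb-bs and Hbb-bt had the same highest library in 6 of 6 groups and the same lowest in 5 of 6. Hba-a1 and Hba-a2 did so in 6 and 5 groups. Alas2 had the same lowest library as Hba-a2 in 6 of 6 groups, and the same lowest as Hbb-bs in 4 of 6. Fech shared neither its highest nor its lowest library with Hbb-bs in any of the 6 groups.

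Among the alpha globins, Hba-a2 in WT naive libraries 1 to 5 stood at 457, 1159, 994, 654 and 789 CPM. In S55L naive libraries 1 to 5 it stood at 285, 331, 343, 436 and 335 CPM. The 2 groups did not overlap, and the highest S55L naive library lay just below the lowest WT naive one. Hba-a2 in WT PP was 133 CPM in library 1, 821 in library 3, 1076 in library 4 and 407 in library 5. In S55L PP it was 729 CPM in library 1, 830 in library 3, 1679 in library 4 and 469 in library 5. WT PP 1 was the lowest of all 18 libraries and S55L PP 4 the highest. All S55L PP libraries lay above all S55L naive libraries, while the PP groups of both genotypes overlapped.

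Hba-a1 followed Hba-a2 at a lower level. It stood at 37.4, 94.9, 88.4, 54.2 and 65.4 CPM in WT naive 1 to 5 and at 21.5, 35.0, 28.8, 37.3 and 21.4 CPM in S55L naive 1 to 5. The naive groups touched without overlap, with WT naive 1 at 37.4 CPM and S55L naive 4 at 37.3. WT PP libraries 1, 3, 4 and 5 held 12.6, 61.1, 85.8 and 24.6 CPM, and S55L PP libraries 1, 3, 4 and 5 held 60.4, 83.1, 140.5 and 31.3 CPM. In both PP groups library 4 was the highest.

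Among the beta globins, Hbb-bs was at 2313, 4081, 3390, 1998 and 2017 CPM in WT naive 1 to 5. In S55L naive 1 to 5 it was at 1165, 1377, 1468, 2421 and 2499 CPM. These groups overlapped, since S55L naive 4 and 5 lay above WT naive 1, 4 and 5. WT PP libraries 1, 3, 4 and 5 held 613, 3155, 3409 and 4986 CPM, and S55L PP libraries held 2467, 4079, 8165 and 5898 CPM. WT PP 1 was again the lowest library of the study, and the other 3 WT PP libraries fell inside the S55L PP range.

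Hbb-bt, the lesser-read beta gene, stood at 374, 402, 348, 188 and 241 CPM in WT naive 1 to 5. S55L naive 1 to 5 held 100.3, 125, 136, 193 and 239 CPM. WT PP 1, 3, 4 and 5 held 73.5, 358, 418 and 844 CPM, and S55L PP 1, 3, 4 and 5 held 392, 601, 842 and 819 CPM. Every S55L PP library lay above every S55L naive library, and the naive groups of both genotypes overlapped between 188 and 239 CPM.

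Alas2, the erythroid form of the first heme enzyme, was read at a low level, with 7 to 53 reads per library. WT naive 1 to 5 held 4.61, 12.2, 9.30, 6.84 and 8.36 CPM, and S55L naive 1 to 5 held 2.07, 3.02, 4.43, 3.11 and 2.60 CPM. The naive groups did not overlap. WT PP 1, 3, 4 and 5 held 2.52, 7.22, 7.80 and 4.99 CPM, and S55L PP 1, 3, 4 and 5 held 8.91, 6.03, 14.2 and 4.96 CPM. All S55L PP libraries exceeded all S55L naive ones, and WT PP 1 sat among the S55L naive values.

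Fech, which serves heme synthesis in every tissue, was nearly level. Its group means were 91.3 ± 6.73 CPM in WT naive (SD, n = 5), 78.7 ± 15.3 in WT PP (SD, n = 4), 78.9 ± 7.79 in S55L naive (SD, n = 5) and 77.3 ± 6.29 in S55L PP (SD, n = 4). All 18 libraries lay between 63.1 and 99.6 CPM. For comparison, the group means of Hbb-bs were 2760 ± 932, 3041 ± 1810, 1786 ± 626 and 5152 ± 2449 CPM in the same order, so its order of groups was S55L naive, WT naive, WT PP and S55L PP. WT naive and WT PP were neighbours in that order with means closer than either SD.

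Slc4a1, the chloride-bicarbonate exchanger of the red cell membrane, was too rare to test in either study. WT naive libraries held 1 read in all, WT PP 2, S55L naive 1 and S55L PP 4, the last as 1 read in each library. A library without a read is still compatible with up to 3 reads, which is 0.585 CPM at the deepest such library. In the diet study libraries held 1 to 19 reads.

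**Figure D1:**
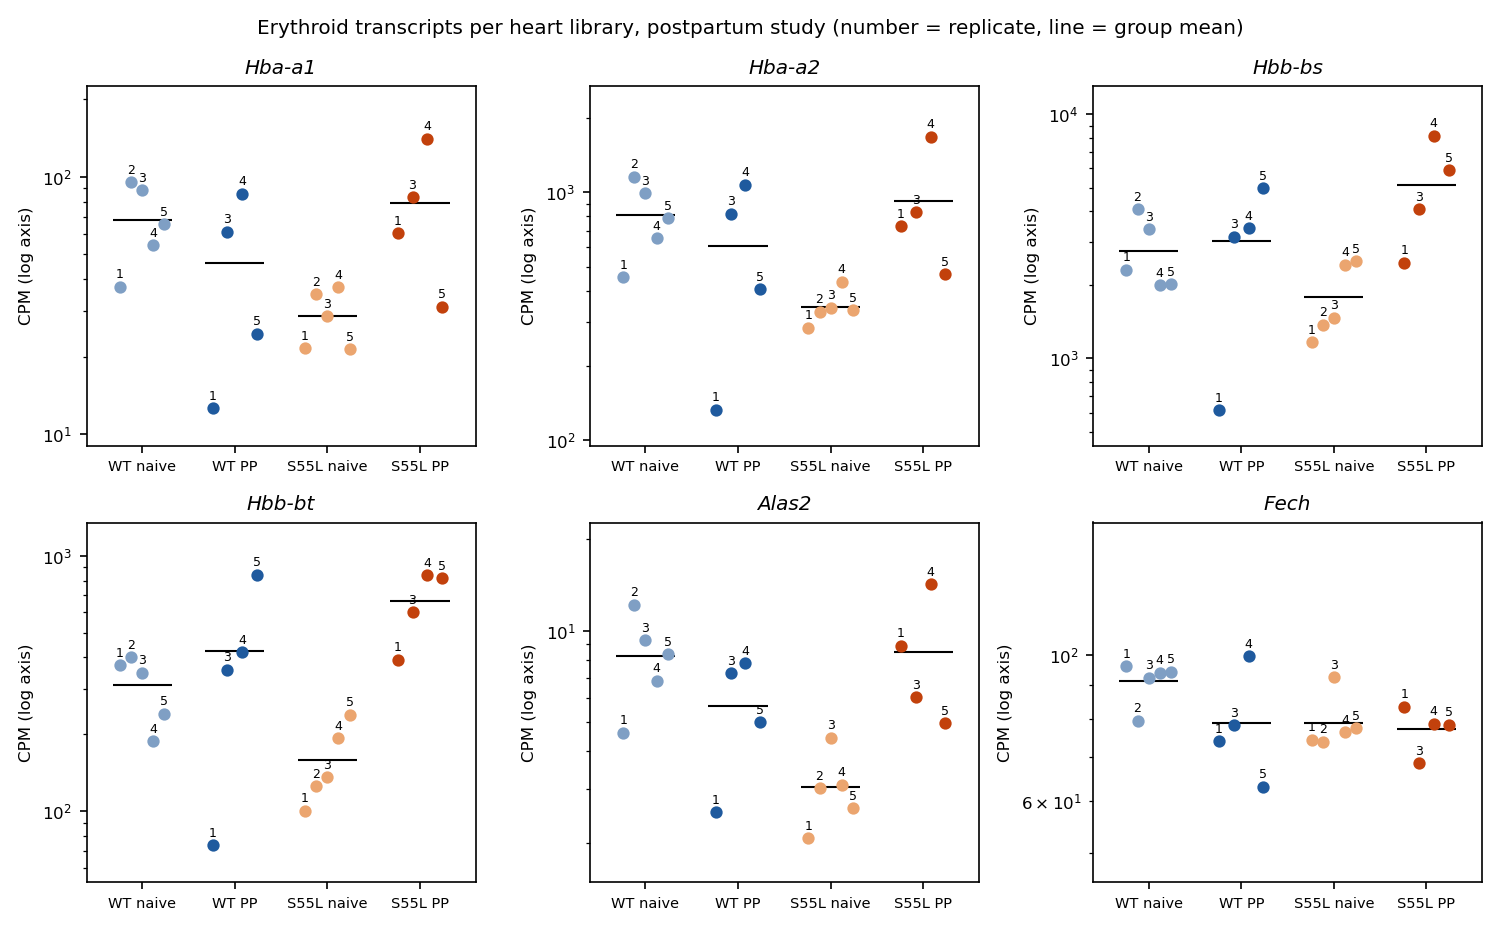
CPM on a log axis of 6 members in the 18 libraries of the postpartum study, 1 point per library labelled with its replicate number and a line at the group mean. WT PP 1 lay lowest of all libraries for the 4 globins (Hbb-bs 613 CPM), S55L PP 4 highest for Hba-a1, Hba-a2, Hbb-bs and Alas2, and Fech stayed between 63.1 and 99.6 CPM.

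The first comparison asked how naive hearts of the 2 genotypes differed. Hba-a1, Hba-a2 and Alas2 were lower in S55L naive than in WT naive hearts. Alas2 differed by -1.40 on the log2 scale (standard error, SE, 0.35), a level 0.380 times that of WT, with an adjusted p of 0.00194 by edgeR's quasi-likelihood test with Benjamini-Hochberg adjustment over 11945 genes. Hba-a1 differed by -1.23 (SE 0.47, edgeR adjusted p = 0.0465) and Hba-a2 by -1.23 (SE 0.46, edgeR adjusted p = 0.0402). The other members did not pass an adjusted p of 0.05 in edgeR: Hbb-bs gave -0.63 (adjusted p = 0.28), Hbb-bt -0.97 (adjusted p = 0.105) and Fech -0.21 (adjusted p = 0.19). Thus 3 of 6 members tested were called, all lower, where 43.5% of all genes were called, 21.9% higher and 21.6% lower. Hba-a1 and Hba-a2 may share reads, so they need not be 2 separate results. The same 3 members did not overlap between the groups, as was the case for 32.2% of all genes. The median of the 6 members was -1.10 and that of all genes 0.00 on the log2 scale.

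The alpha-globin calls stood close to the threshold. Leaving out any 1 of 9 of the 10 naive libraries (every one except WT naive 1) ended the call for Hba-a1, with edgeR adjusted p-values of 0.0518 to 0.0965. For Hba-a2 the call ended without any 1 of 7 libraries (WT naive 2, 3 or 5, or S55L naive 1, 2, 3 or 5), with edgeR adjusted p-values of 0.0583 to 0.0877. Alas2 stayed called without each of the 10, between -1.57 and -1.25. With total counts in place of TMM, which moved the median of all genes to 0.24, Hba-a1 was at -0.97 (edgeR adjusted p = 0.0771) and Hba-a2 at -0.96 (0.0685), and Alas2 alone was called. Hba-a2 also lost its call with all deposited columns (-1.23, edgeR adjusted p = 0.0521). Hbb-bt gained one with limma voom (-1.01, limma adjusted p = 0.04), with only these 2 groups fitted (-0.98, edgeR adjusted p = 0.0102) and without the outer plate rows (-0.88, edgeR adjusted p = 0.0374). Without a filter on low counts Alas2 alone was called, with Hba-a1 at -1.10 (edgeR adjusted p = 0.147) and Hba-a2 at -1.10 (0.135).

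Plate column moved with these 3 genes. The 7 libraries of column 2 held 133 to 469 CPM of Hba-a2 and 2.07 to 4.96 CPM of Alas2, whichever group they came from. The 8 libraries of column 1 held 407 to 1159 CPM of Hba-a2 and 4.61 to 12.2 of Alas2, and the 3 of column 3 held 729 to 1679 and 6.03 to 14.2. Both column 2 libraries that were not S55L naive were the lowest of their own group for Alas2, WT PP 1 at 2.52 CPM and S55L PP 5 at 4.96. For Hbb-bs the column medians were 3272, 1468 and 4079 CPM in columns 1, 2 and 3, and S55L PP 5 at 5898 CPM was the 1 library of column 2 above 2499. With the column as a term in the fit, the S55L naive difference was -0.04 for Alas2 (edgeR adjusted p = 0.978), 0.92 for Hba-a1 (0.46), 1.30 for Hba-a2 (0.172), 2.02 for Hbb-bs (0.0646) and 1.91 for Hbb-bt (0.0686), so that the sign turned for all 4 globins. Genotype within a column could be estimated in that fit through 1 library only, WT PP 1, so plate column and genotype cannot be told apart here. Library measures split by genotype as well: reads not aligned to a single place were 24.7% to 27.3% in WT and 17.5% to 21.2% in S55L libraries, and reads on genes 58.3% to 61.6% and 66.3% to 69.2%. Their part in the S55L against WT differences was not tested.

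**Figure D2:**
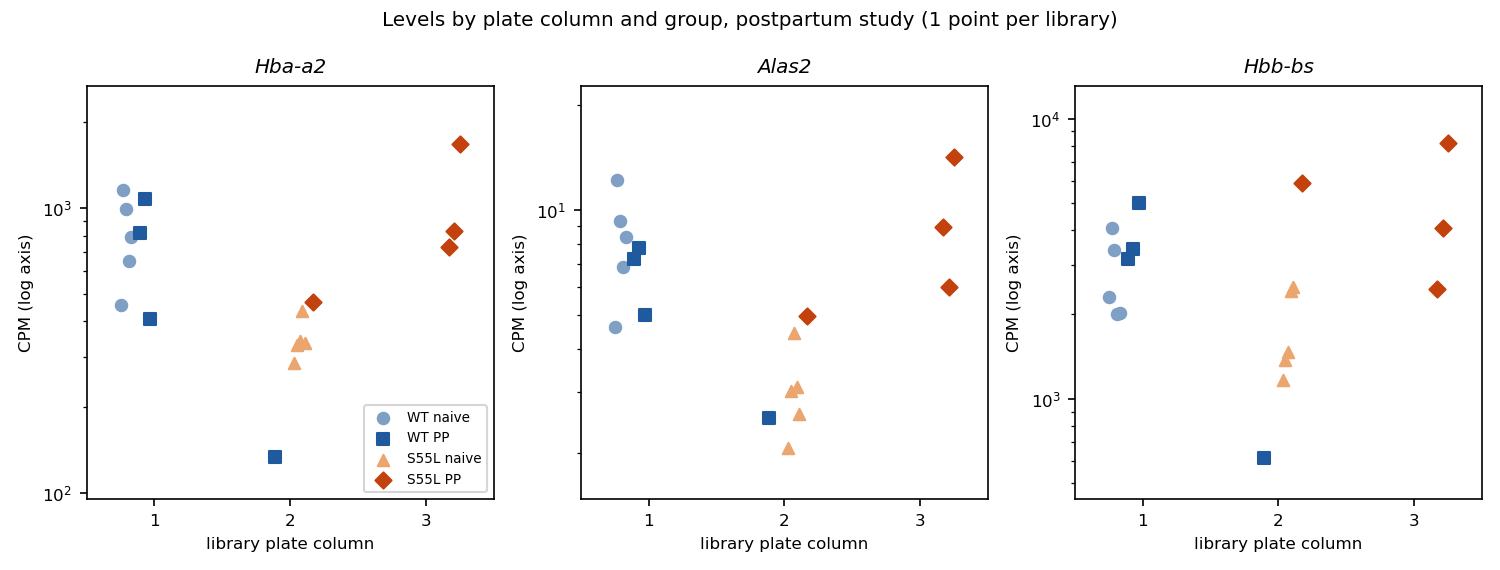
CPM on a log axis of Hba-a2, Alas2 and Hbb-bs against the library plate column, 1 point per library of the postpartum study with colour and shape for the group. Column 2 held the low range of Hba-a2 (133 to 469 CPM) and Alas2 (2.07 to 4.96 CPM) for libraries of 3 groups. It also held the lowest median of Hbb-bs (1468 CPM), with S55L PP 5 apart at 5898 CPM.

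The second comparison set S55L PP against WT PP hearts. None of the 6 members was called, where 31.6% of all genes were, 16.4% higher and 15.2% lower. The differences were 0.83 on the log2 scale for Hba-a1 (SE 0.52, edgeR adjusted p = 0.246), 0.61 for Hba-a2 (SE 0.50, 0.388), 0.76 for Hbb-bs (SE 0.50, 0.274), 0.65 for Hbb-bt (SE 0.51, 0.365), 0.66 for Alas2 (SE 0.36, 0.171) and -0.02 for Fech (SE 0.15, 0.934). No member reached an unadjusted p of 0.05 by edgeR, while 4946 of the 11945 genes did. Every member overlapped between the groups, against 25.4% of genes that did not. Within the 4 same-numbered pairs Hba-a1, Hba-a2 and Hbb-bs were higher in S55L PP in 4 of 4, Hbb-bt in 3, and Alas2 and Fech in 2. The labels do not say that a shared number pairs mice, and WT PP 1 and S55L PP 1 were each also deposited as number 2. How many of all genes were higher in every pair was not counted, and Hba-a1 and Hba-a2 may share reads. No member was called with the number as a block (Hba-a1 0.88, edgeR adjusted p = 0.0747). Leaving out 1 library moved Hba-a1 between 0.40 and 1.32, Hba-a2 between 0.16 and 1.04, Hbb-bs between 0.43 and 1.11, Hbb-bt between 0.30 and 1.24 and Alas2 between 0.31 and 0.85, all without a call. The lowest values came without S55L PP 4 for the alpha globins and Alas2 and without WT PP 1 for the beta globins, and the highest without WT PP 4 or, for the beta globins, WT PP 5. Alas2 was called with total counts (0.93, edgeR adjusted p = 0.0359) and with all deposited columns (0.86, 0.0404), a fit that counts the copied libraries as 2 each, and with the plate column as a term Hbb-bs (3.27, 0.0132) and Hbb-bt (3.48, 0.0077) were.

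The third comparison set WT PP against WT naive hearts, the postpartum state without the mutation. No member was called by edgeR, as was the case for nearly all genes (0.0167% called, 2 genes). At an unadjusted p of 0.05, 756 genes and none of the 6 members passed, and DESeq2 called 12 genes and no member. Hbb-bs differed by 0.14 (SE 0.47), Hbb-bt by 0.45 (SE 0.48), Hba-a1 by -0.60 (SE 0.51), Hba-a2 by -0.41 (SE 0.48), Alas2 by -0.58 (SE 0.38) and Fech by -0.22 (SE 0.14). All 6 members overlapped between these groups, where 1.88% of genes did not. Without WT PP 1, Hbb-bs was at 0.48, Hbb-bt at 0.81, Hba-a1 at -0.26 and Alas2 at -0.30, still with no call. Without WT PP 5, Hbb-bs was at -0.21 and Hbb-bt at -0.14.

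The fourth comparison set S55L PP against S55L naive hearts. Hbb-bt was 4.19 times as high in S55L PP, a log2 difference of 2.07 (SE 0.49, unadjusted p = 0.000738, adjusted p = 0.407 by edgeR). Alas2 differed by 1.48 (SE 0.33, unadjusted p = 0.000113, edgeR adjusted p = 0.155). Hbb-bs gave 1.53 (SE 0.48, edgeR adjusted p = 0.631), Hba-a1 1.46 (SE 0.48, 0.656), Hba-a2 1.42 (SE 0.48, 0.674) and Fech -0.03 (SE 0.14, 0.978). No gene of the whole table was called by edgeR in this comparison (0%), and so no member was. At an unadjusted p of 0.05, 749 genes passed (6.27%), and 5 of the 6 members were among them, each higher in S55L PP. Hba-a1 and Hba-a2, which may share reads, were both among these members.

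Hba-a2, Hbb-bt and Alas2 did not overlap between S55L naive and S55L PP, where 2.24% of all genes did not. Other tools drew the line elsewhere. DESeq2 called 18 genes, among them Hbb-bt (2.08, DESeq2 adjusted p = 0.0245) and Alas2 (1.50, 0.0291), and limma voom called 20 genes and none of the members. Without a filter on low counts edgeR called Alas2 (1.46, adjusted p = 0.00346), and with only these 2 groups fitted it called Hbb-bt (2.08, adjusted p = 0.0214). With the plate column as a term the differences were 0.70 for Alas2, 0.12 for Hba-a1, 0.44 for Hba-a2, 1.72 for Hbb-bs and 2.37 for Hbb-bt, none called. Without the libraries of the outer plate rows A and H, a choice made after seeing the data, edgeR called 8 genes, among them Hba-a1 (1.96, adjusted p = 0.00727), Hba-a2 (1.86, 0.0264) and Alas2 (1.70, 0.0264). WT PP 1 and S55L PP 1 were taken as row A there, although each has a copy labelled row B, so their true row is unknown. S55L PP 5 was the S55L PP library that shared column 2 with S55L naive. It held 819 CPM of Hbb-bt against 100.3 to 239 in S55L naive, and 5898 CPM of Hbb-bs against 1165 to 2499. For the others it was at or near the S55L naive range, with 31.3 CPM of Hba-a1 against 21.4 to 37.3, 469 CPM of Hba-a2 against 285 to 436 and 4.96 CPM of Alas2 against 2.07 to 4.43.

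The postpartum change was then compared between genotypes as an interaction. Alas2 gave a difference of 2.06 on the log2 scale between the S55L and the WT change (SE 0.50, unadjusted p = 0.000318, edgeR adjusted p = 0.996). Hba-a1 gave 2.06 (SE 0.70), Hba-a2 1.84 (SE 0.68), Hbb-bt 1.62 (SE 0.69), Hbb-bs 1.39 (SE 0.67) and Fech 0.19 (SE 0.20). No gene was called by edgeR (0%), 445 (3.73%) passed an unadjusted p of 0.05, and 4 of the 6 members were among those 445. Hba-a1 and Hba-a2, which may share reads, were both among these members. DESeq2 called 1 gene and no member. With the plate column as a term the values were 1.01 for Alas2, 0.39 for Hba-a1, 0.52 for Hba-a2, 1.57 for Hbb-bt and 1.24 for Hbb-bs. All 6 members thus missed the threshold in the interaction.

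**Figure D3:**
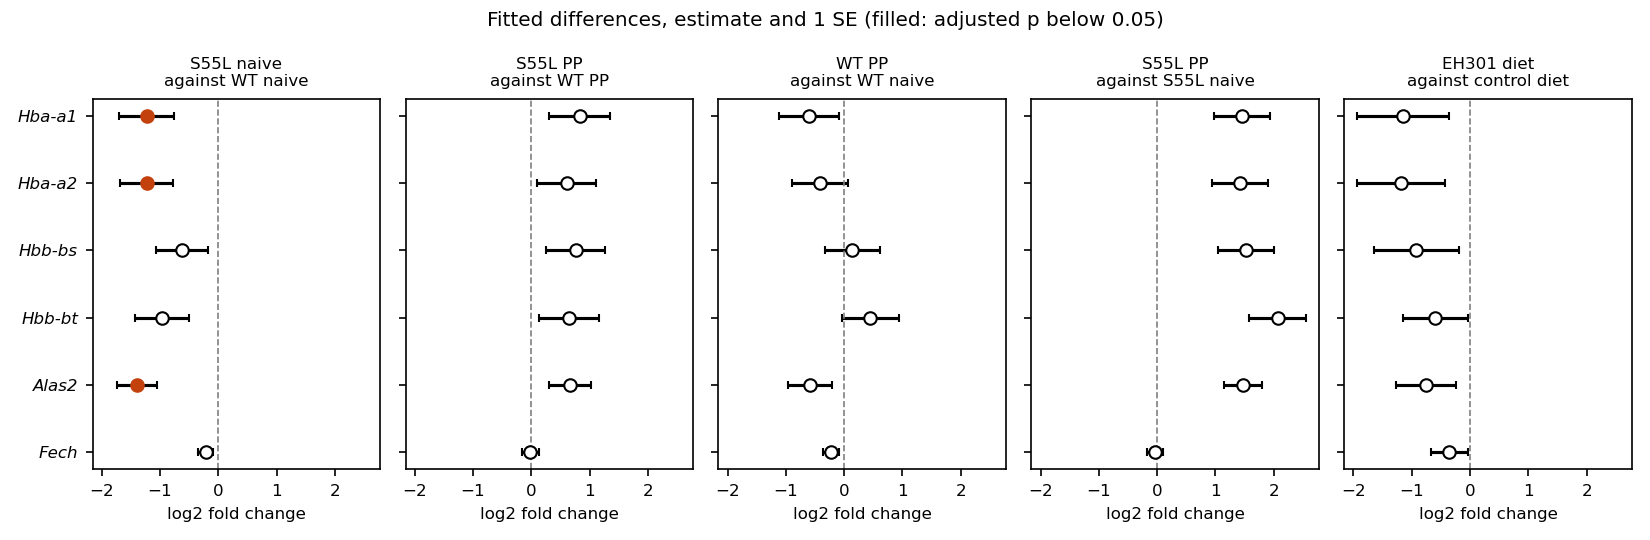
Log2 fold change of 6 members with 1 SE in 5 comparisons, filled where edgeR's adjusted p was below 0.05. Hba-a1, Hba-a2 and Alas2 were called in S55L naive against WT naive, and Hbb-bt gave the largest estimate of the panel in S55L PP against S55L naive (2.07).

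In the diet study, control diet libraries 1 to 4 held 331, 2842, 8215 and 1548 CPM of Hbb-bs, and EH301 diet libraries 7 to 10 held 2971, 1472, 1707 and 678 CPM. Control diet 3 was the highest and control diet 1 the lowest of the 8, so the EH301 values lay inside the control range. Hba-a1 followed, with 147.7, 2393, 7088 and 2090 CPM under the control diet and 1992, 1505, 1348 and 439.5 CPM under EH301. Hba-a2 held 97.0, 1301, 3850 and 1038 CPM against 1004, 743, 783 and 247 CPM. Both alpha genes thus kept the order seen for Hbb-bs at its ends.

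Hbb-bt held 465, 397, 1234 and 414 CPM under the control diet and 757, 584, 213 and 114 CPM under EH301. Alas2 held 35.3, 35.6, 110.5 and 43.9 CPM under the control diet and 52.1, 57.9, 19.9 and 11.1 CPM under EH301. For both genes EH301 diet 7 and 8 lay above 3 of the 4 control libraries, and EH301 diet 9 and 10 below all 4. Fech held 307, 163, 146 and 132 CPM against 113, 191, 118 and 156 CPM, with its highest value in the shallow control diet 1.

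The control diet libraries used lay in plate columns 1 and 2 and the EH301 diet libraries in column 3. Diet and plate column therefore cannot be told apart in what follows. No member was called between the diets by edgeR, nor was any of 10335 genes (0%). At an unadjusted p of 0.05, 138 genes (1.34%) and none of the 6 members passed. DESeq2 called none, and limma voom called 1 gene that was no member. The differences of EH301 from control were -1.15 for Hba-a1 (SE 0.78), -1.18 for Hba-a2 (SE 0.75), -0.92 for Hbb-bs (SE 0.73), -0.59 for Hbb-bt (SE 0.56), -0.76 for Alas2 (SE 0.51) and -0.36 for Fech (SE 0.32). Without control diet 3 they were -0.28, -0.29, 0.05, -0.08, -0.22 and -0.49 in the same order, closer to 0 for each member except Fech. Without the shallow control diet 1 they were -1.54, -1.57, -1.30, -0.71, -0.90 and -0.03. All members overlapped between the diets, where 1.5% of genes did not.

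**Figure D4:**
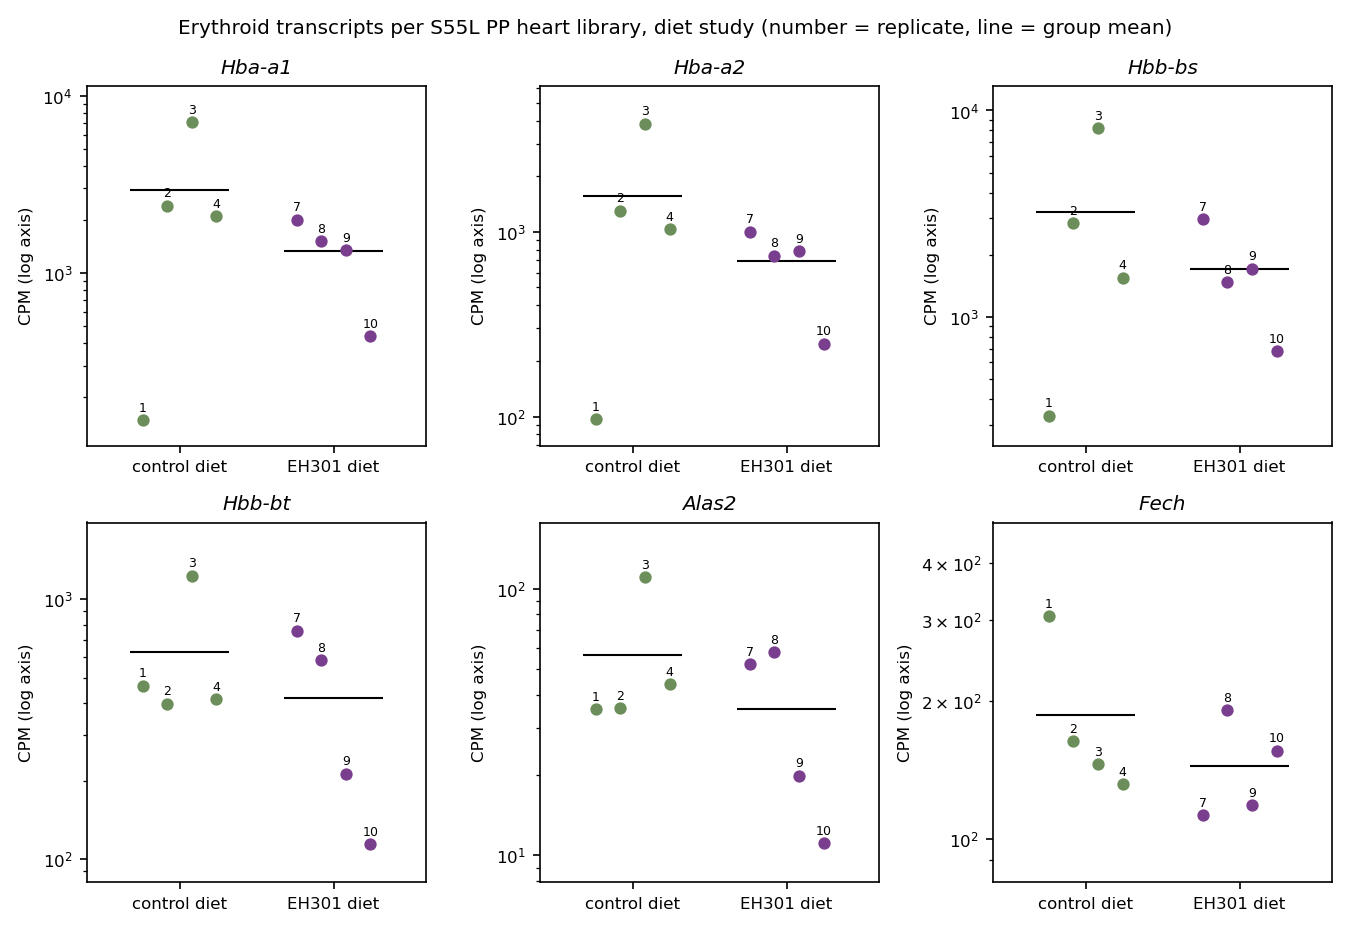
CPM on a log axis of 6 members in the 8 libraries of the diet study, 1 point per library labelled with its replicate number and a line at the group mean. Control diet 3 was the highest library for the 4 globins and Alas2 (Hbb-bs 8215 CPM) and control diet 1 the lowest for Hba-a1, Hba-a2 and Hbb-bs.

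Ratios between the globin genes were set beside each other by library. In the postpartum study Hba-a1 had 0.0605 to 0.106 reads for each read of Hba-a2. In the diet study it had 1.52 to 2.03. The 2 tables list different numbers of genes, and reads not aligned to a single place were 17.5% to 27.3% of the reads in the postpartum study and 35.2% to 39.1% in the diet study. The last 300 bases of the Hba-a1 and Hba-a2 transcripts (GENCODE M21) were identical at 283 of 284 aligned bases, and 80.1% of all 50-base windows of Hba-a1 there also lay in Hba-a2. How reads were shared within the alpha pair was not tested, so each gene's own level is uncertain. For the beta pair 88.5% of aligned bases were identical and 36.7% of the 50-base windows of Hbb-bs lay in Hbb-bt.

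The ratio of beta-globin to alpha-globin reads was 2.64 to 7.69 in 16 of the 18 libraries of the postpartum study. The other 2, WT PP 5 (13.5) and S55L PP 5 (13.4), were the 2 libraries of plate row H. They came from different genotypes and plate columns. In both, Hbb-bs was the highest or second highest of its group and the alpha globins and Alas2 the lowest or second lowest. Alas2 reads per 1000 globin reads were 0.797 and 0.687 there, the lowest of the study. In the diet study the ratio was 0.627 to 1.24 in 7 of 8 libraries, including the single row H library at 0.864, and 3.25 in control diet 1. The part of plate row in these ratios was not tested, and 2 libraries give no error for it.

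In S55L naive hearts 7.38% to 8.71% of the beta-globin reads were Hbb-bt. The share was 9.35% to 13.7% after delivery in the same genotype, without overlap. In WT it made up 8.60% to 13.9% in naive and 10.2% to 14.5% in PP libraries, with overlap. In the diet study it was 11.1% to 28.4% in 7 libraries. Control diet 1 gave 58.4% (211 of 361 reads, Wilson 95% interval 53.3% to 63.4%, for counting error only), far from the other libraries. Alas2 read 0.687 to 3.03 per 1000 globin reads in the postpartum and 4.91 to 13.4 in 7 diet libraries, with control diet 1 again apart at 33.9.

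**Figure D5:**
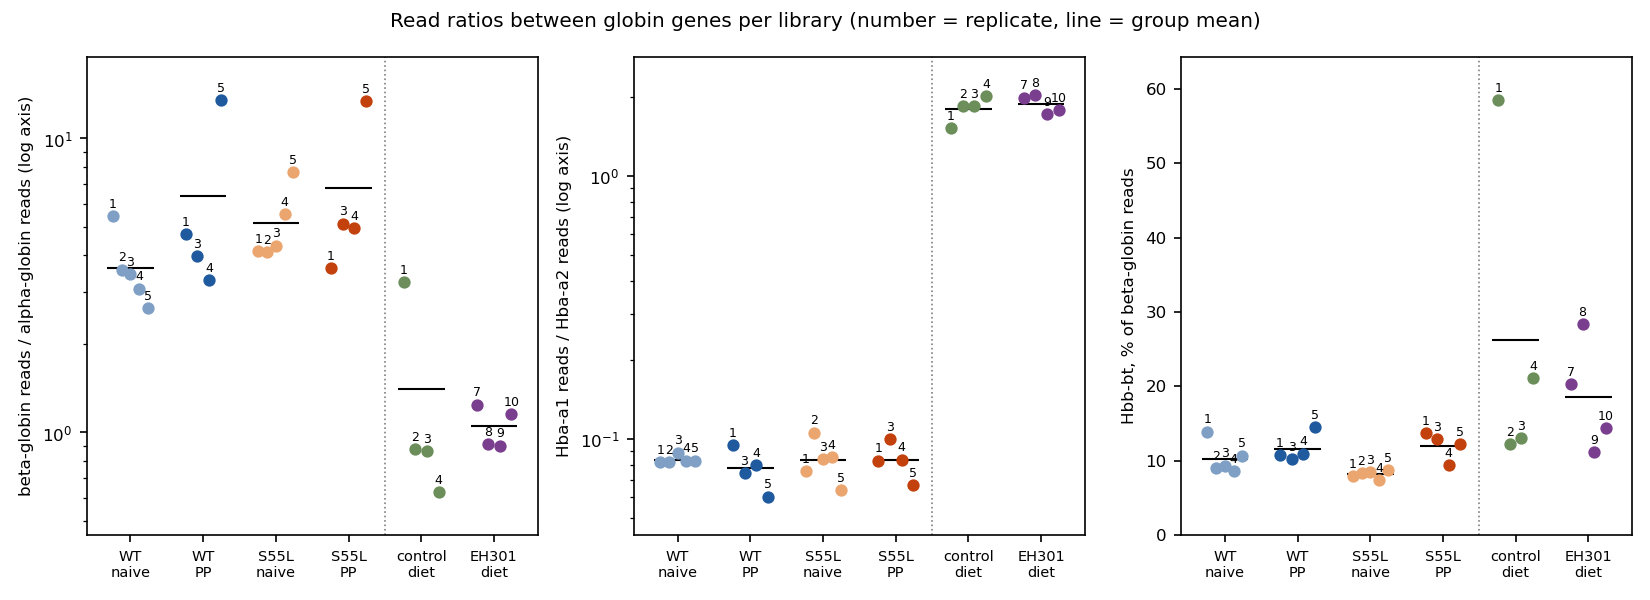
Read ratios per library in all 6 groups: beta-globin over alpha-globin reads and Hba-a1 over Hba-a2 reads on log axes, and Hbb-bt as a percentage of beta-globin reads on a linear axis from 0. WT PP 5 and S55L PP 5 stood above 13 in the first panel, the studies separated fully in the second (0.0605 to 0.106 against 1.52 to 2.03), and control diet 1 stood at 58.4% in the third.

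The rest of the heme pathway was read beside its members. Of the 7 other enzymes of heme synthesis, 5 were lower in S55L naive than in WT naive hearts by edgeR and none was higher, where 21.6% of all genes were lower. Among them were Alad, which joins 2 aminolevulinate molecules (-0.99, SE 0.17, edgeR adjusted p = 3e-05), Cpox (-0.68, SE 0.16, 0.00132), Alas1, the housekeeping form of the first enzyme (-0.57, SE 0.14, 0.00225), and Ppox (-1.14, SE 0.37, 0.0146). Between S55L PP and WT PP 4 of these 7 were lower, where 15.2% of all genes were, namely Alas1 (-1.05, SE 0.16, edgeR adjusted p = 1.06e-05), Alad (-1.05, SE 0.19, 0.000104), Cpox (-0.67, SE 0.18, 0.00543) and Uros (-0.64, SE 0.24, 0.0419). The medians of the 7 were -0.68 and -0.74. With total counts 3 and 2 of the 7 were called lower, and with the plate column as a term none was in either comparison. Alas1 itself was at -0.33 (edgeR adjusted p = 0.0832) with total counts and 0.0475 (0.921) with the plate column in the naive comparison. Postpartum it was at -0.76 (edgeR adjusted p = 0.000997) and -0.39 (0.346).

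Of 9 genes of heme breakdown and hemoglobin scavenging tested, 4 were higher in S55L naive than in WT naive hearts and none lower, where 43.5% of all genes were called and 21.9% were higher. They were Blvrb, a flavin and biliverdin reductase abundant in red cells (2.85, SE 0.23, edgeR adjusted p = 7.37e-10), Lrp1, a receptor for heme bound to hemopexin (0.82, SE 0.14, 2.09e-05), Slc48a1, a heme transporter (0.81, SE 0.17, 0.000313), and Cd163, the macrophage receptor for hemoglobin bound to haptoglobin (1.21, SE 0.44, 0.0271). Between S55L PP and WT PP the first 3 were again higher, where 16.4% of all genes were. Blvrb was higher by 2.81 (SE 0.26, edgeR adjusted p = 8.8e-09). Blvrb stood at 25.6 ± 1.81 CPM in WT naive (SD, n = 5) and 184 ± 72.0 in S55L naive (SD, n = 5), opposite to Alas2. It was also called with the plate column as a term (2.47, edgeR adjusted p = 0.00114), where 2 genes of the list were higher and 1 lower.

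Red cell membrane and skeleton genes had no common direction. Of 7 tested in S55L naive against WT naive, 2 were higher and 3 lower by edgeR. Of all genes, 21.9% were higher and 21.6% lower in that comparison. Rhd (1.11) was among the higher, and Sptb (-0.71), Ank1 (-0.66) and Gypc (-0.62) were the lower. Between S55L PP and WT PP 3 were higher and 3 lower, where 16.4% and 15.2% of all genes were. Of 11 late erythroid genes tested, 1 was higher (Mkrn1, 0.47) and 2 lower (Prdx2, -0.56, and Abcb10, -0.49) in the naive comparison. The shares of all genes there were again 21.9% higher and 21.6% lower. Myoglobin, Mb, the heme protein of heart muscle, was lower in S55L in both states (-0.84 and -1.18, edgeR adjusted p = 0.000263 and 2.47e-05). In the WT PP against WT naive, S55L PP against S55L naive and diet comparisons no gene of these lists was called by edgeR.

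Markers of other blood cells were scarce. Summed neutrophil markers lay at 0.983 to 7.81 CPM and T cell markers at 0 to 5.55 CPM over the libraries of the postpartum study, and none of either list could be tested. The neutrophil genes Elane and Mpo had no read there. Of the platelet list only Pf4, also made by macrophages, passed the filter, and it was higher in S55L in both states (1.74 and 1.53). Of 11 endothelial genes tested, 6 were lower in S55L naive and 4 in S55L PP hearts, and of 12 cardiomyocyte genes 11 and 10 were, where 21.6% and 15.2% of all genes were lower. What part the mix of cells had in the globin levels was not tested.

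Over the 18 libraries of the postpartum study, after the mean of each group was subtracted, the log2 CPM of Hbb-bs ran closest to Hbb-bt among the members (r = 0.95), then Hba-a2 (0.69), Alas2 (0.55), Hba-a1 (0.53) and Fech (-0.11). Alas2 ran closest to Hba-a2 (0.89) and Hba-a1 (0.87), and less to Hbb-bs (0.55) and Hbb-bt (0.40). Outside the members the 5 genes nearest to Hbb-bs among 9859 were Ccdc85c (0.89), Trp53inp2 (0.86), Sdhb (0.85), Fhl2 (0.85) and Bpgm (0.84). Bpgm makes the red cell metabolite that lowers the oxygen affinity of hemoglobin. Those near to Alas2 included Epn1 (0.92), Slc9a3r2 (0.89), Myadml2 (0.87) and Col6a2 (0.85). These are descriptions over libraries that share plate, depth and scaling, and genes are not independent of each other.

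In the diet study the pairing was different. Over its 8 libraries Hbb-bs ran with Hba-a2 (0.98) and Hba-a1 (0.97), while Alas2 ran with Hbb-bt (0.98). Control diet 1, with 466651 reads on genes, was the lowest library for Hbb-bs, Hba-a1 and Hba-a2 but not for Hbb-bt or Alas2. Its part in these correlations and in those of the genes named next, out of 9474 ranked, was not tested. The nearest other genes were Medag (0.98), Rsrc1 (0.98), Manf (0.98), Med10 (0.98) and Nup93 (0.97) for Hbb-bs, and Ccdc68 (0.94), Psmd12 (0.94), Zfp438 (0.92), Exoc5 (0.91) and Mtln (0.91) for Alas2.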

How the data were processed

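RNA from whole hearts was made into 3' mRNA libraries with the QuantSeq FWD kit from 500 ng of total RNA, per the labels' protocols. The authors deposited unnormalised counts of reads for each gene. The submitters' processing notes name Trimmomatic 0.39, STAR 2.7.0f, HTSeq 0.6.1 and the build GRCm39.p6. The annotation, strand setting and counting mode are not given in the sources used here, so paralogous and overlapping genes are uncertain. HTSeq summary lines were left out of library sizes. Symbols came from GENCODE M21 by Ensembl ID and covered 99.4% (postpartum) and 99.8% (diet) of the reads on genes. Upstream sequences came from RefSeq (GRCm38.p6), where 5 of the 7 members matched an entry.

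The members, gene lists and tests were chosen with earlier results of these data known. Named genes are the 7 members, up to 3 called genes of each list with the lowest adjusted p (all called genes are named where a list has 6 or fewer, chosen after their values were seen), and the 5 genes nearest to Hbb-bs and to Alas2 with a mean of at least 5 CPM. Some genes that this rule names are not reported here. Counts were filtered with filterByExpr, scaled with TMM and tested with edgeR 4.0.16 (glmQLFit with robust dispersions, run under R 4.3.3). P-values were adjusted by Benjamini-Hochberg over all genes tested and called below 0.05. One fit covered the 18 postpartum libraries and another the 8 diet libraries. The common biological coefficient of variation was 0.199 and 0.299. Each SE was taken from the estimate and its F statistic. CPM are edgeR's, with a prior count of 2 for log2 values. Identical columns were found by comparing all pairs. Chi-square values per gene were 2.16 or more (postpartum) and 4.94 or more (diet) between libraries that were not copies. The scripts were tested on simulated counts.

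Deviations from the group mean correlated between WT PP and S55L PP libraries with the same number (r from 0.119 to 0.333, 4 pairs). For the remaining combinations of groups the lowest r was 0.029 or less, and the highest was 0.356 (WT naive with WT PP). Each of 4 WT PP libraries was most like the S55L naive library of its own number (r from 0.029 to 0.229). With S55L PP this held for 3 of 4. What the numbers stand for is not in the labels. Alternatives were DESeq2 size factors, total counts, library sizes without the 7 members, no filter, the DESeq2 1.42.0 test, limma 3.58.1 voom with quality weights, a plate column term, a replicate block by number, all deposited columns, only the 2 groups compared, the shared diet column kept under either diet, no diet library under 1200000 reads, and each library left out in turn. Terms for, and removal of, the outer plate rows A and H were added after seeing the data.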

Additional observations from a re-analysis of the deposited data

Results flagged for a closer look

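Single libraries stood apart from the rest of their group in 4 of 38 sets checked (1 member in 1 group each), by a gap to the nearest library that was large against the group's range (Dixon's 95% limit). Chance alone gives about 1 such set in 20. Fech in WT naive 2 was 79.5 CPM, with the other 4 libraries between 92.4 and 96.2. Fech in S55L naive 3 was 92.6 CPM, with the other 4 between 73.8 and 77.3. Hbb-bt in control diet 3 was 1234 CPM, with the other 3 libraries between 397 and 465. Alas2 in control diet 3 was 110.5 CPM, with the other 3 between 35.3 and 43.9. The last 2 belong to 1 library, the only one of plate row H under the control diet.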

How the results depend on the processing

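Of 792 values of single members under the alternatives, 731 kept direction and side of the threshold, 22 lost a call, 18 gained one and 21 turned sign. A value that turned sign was counted only among the 21. These include Hba-a1 and Hba-a2 with the plate column as a term in S55L naive against WT naive, which also lost their calls. Only 3 member results were called in the main fits, all in S55L naive against WT naive, and the rest could only stay uncalled or gain a call. Of 22 alternatives, Alas2 kept its call in 21, Hba-a1 in 10 and Hba-a2 in 11. The cause of these changes was not tested, beyond fewer libraries or genes where an alternative removes them.

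In S55L naive against WT naive the members called were 3. They were 1 with total counts, 1 without a filter, 0 with the plate column as a term (where 2871 genes were called, against 5193) and 1 to 3 with a library left out. As given above, Hba-a2 also lost its call with all deposited columns. Hbb-bt gained one with limma voom, with only the groups compared and without the outer rows. Fech turned to 0.0323 with total counts. With the plate column Hba-a1 turned to 0.92, Hba-a2 to 1.30, Hbb-bs to 2.02 and Hbb-bt to 1.91. Total counts also moved the share of called genes that were higher from 50.4% to 73% here and from 51.9% to 77.9% in S55L PP against WT PP.

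In S55L PP against WT PP the members called were 0. They were 1 with total counts, 1 with all deposited columns, 2 with the plate column (2109 genes, against 3770) and 1 with the outer plate row as a term. Fech turned to 0.26 with total counts, 0.0585 without a filter, 0.0851 with the plate column, 0.0208 with all columns, 0.11 without WT PP 4 and 0.0352 without S55L PP 3 (-0.11 to 0.11 with a library left out).

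In WT PP against WT naive 2 genes were called. They were 21 without a filter, 12 with DESeq2, 21 with the plate column, 6 without the outer rows and 2 to 10 with a library left out (10 without WT PP 1). Hbb-bs turned to -0.11 with all columns, to -0.0909 with the replicate block and to -0.21 without WT PP 5, which also turned Hbb-bt to -0.14 (ranges with a library left out -0.21 to 0.48 and -0.14 to 0.81). Hba-a2 turned to 0.0940 without the outer rows.

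In S55L PP against S55L naive 0 genes were called. They were 3 with total counts, 37 without a filter, 18 with DESeq2, 20 with limma voom, 1 with the plate column, 10 with all columns, 3 with only the groups compared, 2 with the outer row as a term, 8 without the outer rows and 0 to 2 with a library left out. Members among these were 1 without a filter, 2 with DESeq2, 1 with only the groups compared, 2 with the outer row and 3 without the outer rows. Fech turned to 0.0330 with total counts, 0.0335 without S55L naive 3 and 0.0219 without S55L PP 3 (-0.0695 to 0.0335 with a library left out).

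In the interaction 0 genes were called. They were 5 without a filter, 1 with DESeq2, 2 with the plate column, 2 with the outer row (1 of them a member), 2 without the outer rows and 0 to 2 with a library left out. Fech turned to -0.0909 without the outer rows. Between the diets limma voom called 1 gene, and Hbb-bs turned to 0.0525 without control diet 3 (-1.35 to 0.0525 with a library left out). The plate column could not be fitted there.

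The replicate block changed no call of a member. Alas2 gave 1.53 (edgeR adjusted p = 0.0906) under it in S55L PP against S55L naive. The diets share no replicate number. Alas2, with 7 to 53 reads in a library of the postpartum study, and Slc4a1 are limited by depth.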

Other observations

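The column deposited both as control diet 5 and as EH301 diet 6 belongs in no comparison. It held 5444 reads of Hba-a1, 2664 of Hba-a2, 3527 of Hbb-bs, 794 of Hbb-bt, 56 of Alas2, 4 of Slc4a1 and 255 of Fech among 2232129 reads on genes. Tfrc, the transferrin receptor that brings iron into cells, stood at 24.9 CPM in WT PP 1, the library with the lowest globin levels, against a group mean of 158 ± 89.5 CPM in WT PP (SD, n = 4) and a highest value of 216. That WT PP mean includes WT PP 1, the only WT PP library used from plate column 2. In WT naive Tfrc stood at 30.1 ± 8.85 CPM (SD, n = 5). With the plate column as a term the Tfrc difference moved from 0.94 to 3.97 on the log2 scale in S55L naive against WT naive. In S55L PP against WT PP it moved from -1.13 to 1.35. Hmox1, the enzyme that opens the heme ring, was too rare to test in the postpartum study, with 3 reads in WT naive, 7 in WT PP, 49 in S55L naive and 40 in S55L PP libraries. The S55L groups were deeper, with summed reads on genes of 9596415, 9676270, 21460167 and 13480011 in the same order.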
